A study of Arabidopsis thaliana with 12 samples.

Results

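The genes described here are those whose response to paraquat differed between wild-type and trm4b-1 roots of Arabidopsis thaliana. They are all 317 genes of the authors' deposited table of the interaction, out of 33602 genes tested, and genes outside that table did not pass its limit for listing, 0.1 for the adjusted p. The RNA came from seedling roots harvested 6 days after germination on half-strength Murashige and Skoog plates, and was sequenced after removal of ribosomal RNA. The 12 samples formed 4 groups of 3, namely wild-type Col-0 (WT) on control medium, WT on 0.01 uM paraquat, trm4b-1 in the Col-0 background on control medium and trm4b-1 on 0.01 uM paraquat. A single allele was studied, and the replicates are called biological in the series' design text. The deposited tables hold comparisons only, with no value per sample, so depth and the spread of single libraries are unknown.

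Paraquat is a herbicide that takes electrons from the photosynthetic and respiratory chains and passes them to oxygen, which forms superoxide. Plants remove superoxide with superoxide dismutases, which carry iron, manganese or copper and zinc, and which of them a plant makes depends on its copper supply. When copper is short, the regulator SPL7 raises copper uptake genes, the iron superoxide dismutase FSD1 and microRNAs that destroy the messages of dispensable copper proteins. Damage to mitochondria switches on a separate set of nuclear genes that includes alternative respiratory enzymes. TRM4B is a methyltransferase that forms 5-methylcytosine in RNA.

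The interaction is the paraquat change in trm4b-1 minus the paraquat change in WT. A higher value therefore means that the gene rose more, or fell less, with paraquat in trm4b-1 than in WT. A gene called changed had an adjusted p below 0.05 in the table for that comparison, from limma with Benjamini-Hochberg adjustment over all genes tested. Fold changes are taken to be log2, a base the tables leave unnamed. The standard error after each ± was worked out from a deposited fold change and its p (3 samples per group). A paraquat or genotype difference that was not listed was rebuilt from the others and carries no call. TRM4B RNA (AT2G22400, TAIR10 chromosome 2, 9504659 to 9508875, minus strand, 15 exon blocks) was the more abundant in the libraries labelled trm4b-1, by 2.89 ± 0.08 on control medium and 3.90 ± 0.08 on paraquat in the authors' deposited tables. Every genotype direction below is therefore that of the libraries labelled trm4b-1. TRM4B itself was in the interaction (1.01 ± 0.11, adjusted p = 0.000456 in the authors' deposited table), with a rise of 0.99 ± 0.08 with paraquat in trm4b-1 and a rebuilt value of -0.02 ± 0.08 in WT. Another annotated gene, AT2G22390, overlaps it, and whether counting used strand is not given in the sources used here. Gene-level values cannot tell an intact transcript from a partial one.

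Of the 317 listed genes, 185 were higher and 132 lower, and 107 changed, 51 higher and 56 lower. The 107 changed genes are 0.318% of the genes tested, and the listed genes are 0.943%. The last listed gene had an adjusted p of 0.0992. Just inside the threshold for changed genes were CYP82C4 and AT1G47920 (adjusted p = 0.0492 in the authors' deposited table), and just outside were YLS9 and RHS19 (0.0507). Of the 107 changed genes, 88 differed by a log2 value of at least 1. With 3 samples per group the threshold itself favours large values, so this count partly describes the selection. The median interaction was 1.31 over the higher changed genes and -2.36 over the lower ones. Standard errors of the interaction over the changed genes ran from 0.10 to 0.94 with a median of 0.25.

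Most of these genes moved with paraquat in WT. Among the 107 changed genes, 81 changed in WT (17% of all genes tested did), 48 of them upwards and 33 downwards (7.99% and 9.01% of all genes tested). In trm4b-1 60 changed (9.05% of all genes tested), 33 upwards and 27 downwards (4.72% and 4.33%). The interaction is computed from both responses, so these counts describe the genes and support nothing further. The paraquat change was larger in size in WT for 72 of the 107 genes and in trm4b-1 for 35. Among the 51 higher genes, 26 fell in WT with no call in trm4b-1, 13 rose in trm4b-1 with no call in WT, 5 rose in both, 4 fell in both, and 3 fell in WT but rose in trm4b-1. Among the 56 lower genes, 21 rose in WT with no call in trm4b-1, 13 fell in trm4b-1 with no call in WT, 12 rose in both, and 10 rose in WT but fell in trm4b-1.

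**Figure D1:**
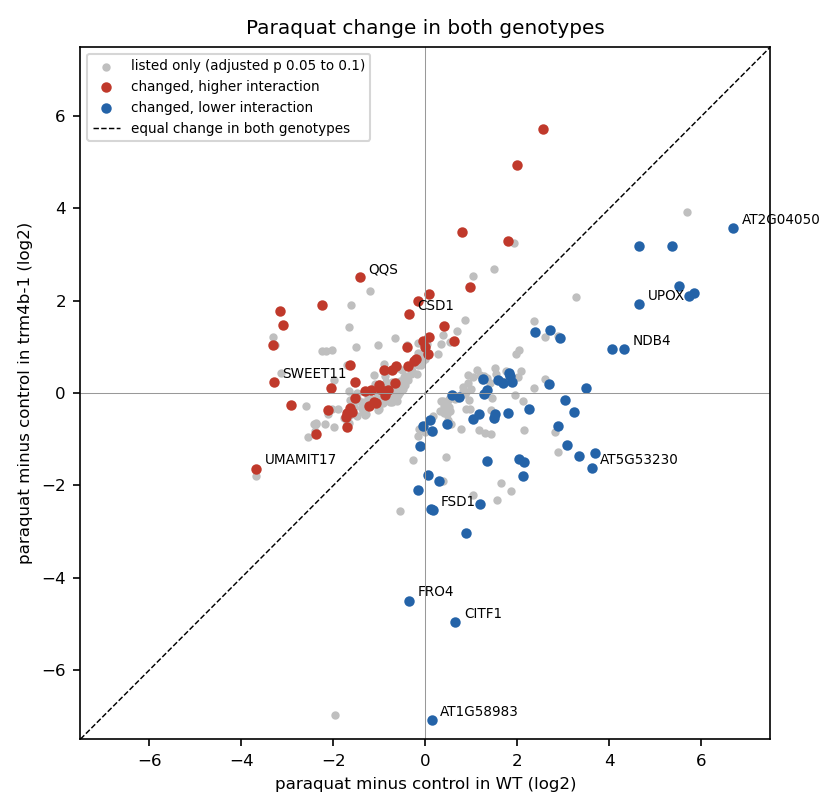
Paraquat change (log2) in WT on the horizontal axis and in trm4b-1 on the vertical axis for the 317 listed genes, each point 1 gene, with rebuilt values where a change was not listed. Points below the dashed line of equal change have a lower interaction, such as FRO4, CITF1 and UPOX, and points above it a higher one, such as SWEET11 and CSD1.

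A second view is the level of each gene in the 4 groups. The table values fix these levels relative to WT on control medium for all 107 changed genes. For 63 of the 107, the group farthest from the mean of the other 3 was WT on control medium. It was trm4b-1 on paraquat for 18 genes, trm4b-1 on control medium for 17 and WT on paraquat for 9. The paraquat change in WT and the genotype difference on control medium both subtract the same 3 WT control libraries. A deviation of those 3 libraries would enter both contrasts with the same sign, and it cannot be told apart from the interaction in these tables. On control medium 78 of the changed genes differed between the genotypes (2.03% of all genes tested did), 43 of them higher and 35 lower in trm4b-1 (0.839% and 1.19% of all genes tested). On paraquat 22 did (0.143% of all genes tested), 11 in each direction (0.0714% of all genes tested in each). The share of all genes listed was 21.6% for paraquat in WT, 12.2% for paraquat in trm4b-1, 3.65% for genotype on control medium and 0.223% for genotype on paraquat.

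**Figure D2:**
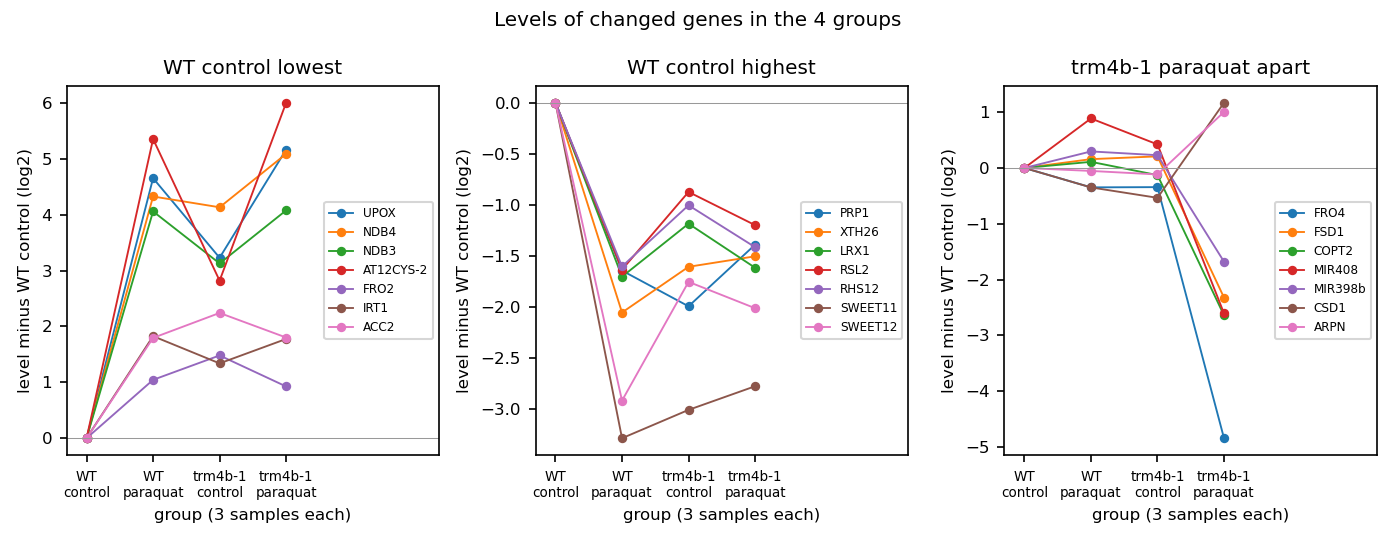
Level of 7 changed genes per panel in each of the 4 groups of 3 samples, as log2 minus the level in WT on control medium (zero by construction), with no error shown because the tables give none for all differences. The left panel holds genes lowest in WT control, the middle panel genes highest there, and in the right panel trm4b-1 on paraquat lies apart, with FRO4 at -4.84 and CSD1 at 1.17.

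Genes of the copper deficiency response held more changed genes than any other list, and most were set apart by 1 group of samples, trm4b-1 on paraquat. Of 23 genes of this list, 15 were listed in the interaction and 12 changed (52.2%, where 0.318% of all genes tested changed), 9 lower and 3 higher. This list, like the other function lists, was chosen with earlier results of these data known. Its share is therefore not independent of these samples. Over the 9 lower genes the paraquat change in trm4b-1 ran from -4.97 to -0.58 and all 9 fell, while in WT it ran from -0.35 to 0.89 with 1 rise. In 11 of the 12, trm4b-1 on paraquat was the group farthest from the others, and the exception was CCS.

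A pair of superoxide dismutase genes, FSD1 and CSD1, had interactions of opposite sign, and no other superoxide dismutase gene was listed. FSD1, the iron superoxide dismutase of plastids (AT4G25100, chromosome 4, 12884300 to 12887011, minus strand), had levels of 0.16 in WT on paraquat, 0.21 in trm4b-1 on control medium and -2.32 in trm4b-1 on paraquat, relative to WT control. Its message was thus close to WT control in 3 groups and low in the last. The interaction was -2.69 ± 0.22 (adjusted p = 4.04e-05 in the authors' deposited table), a 6.44-fold difference in response. CSD1, the cytosolic copper/zinc superoxide dismutase (AT1G08830, chromosome 1, 2827061 to 2829315, plus strand), had levels of -0.35, -0.54 and 1.17 in the same order. It stood above WT control in trm4b-1 on paraquat and below it in the other groups, and its interaction was 2.05 ± 0.24 (adjusted p = 0.000844 in the authors' deposited table). AT1G08840 is annotated as overlapping CSD1. CCS, the chaperone that loads copper into this enzyme, fell by 0.64 ± 0.14 in WT and rose by 0.58 ± 0.13 in trm4b-1, with an interaction of 1.22 ± 0.20 (adjusted p = 0.0136) in the authors' deposited tables. Of 32 antioxidant enzymes on a separate list, which does not repeat these genes, 0 were listed in the interaction.

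Regulators and uptake genes were lower. CITF1, a basic helix-loop-helix factor of copper uptake (AT1G71200), fell by 4.97 ± 0.63 with paraquat in trm4b-1 in the authors' deposited table and had a rebuilt value of 0.65 ± 0.35 in WT. Its interaction of -5.62 ± 0.72 (adjusted p = 0.00181 in the authors' deposited table) was exceeded in size by that of AT1G58983 alone. The metal reductase gene FRO4 (AT5G23980, chromosome 5, 8098052 to 8101323, minus strand) had -4.15 ± 0.35 (adjusted p = 4.04e-05), and the copper transporter gene COPT2 had -2.62 ± 0.34 (adjusted p = 0.00181) in the authors' deposited table. FRO5, the tandem neighbour of FRO4, was listed without passing the threshold (-5.02 ± 1.21, adjusted p = 0.0939 in the authors' deposited table), and reads could be shared between these copies. Unlike FRO4, which had a rebuilt value of -0.35 ± 0.17, FRO5 also fell in WT, by 1.97 ± 0.38 in the authors' deposited table. ZIP2, a metal transporter gene (-1.05 ± 0.15), YSL2, a gene for a transporter of metal-nicotianamine complexes (-0.68 ± 0.13), and the copper chaperone gene CCH (-0.66 ± 0.11) were lower by smaller amounts in the authors' deposited table. Outside the list, the metallothionein gene MT1C had -1.82 ± 0.25 (adjusted p = 0.00319 in the authors' deposited table), and CDT1, named for cadmium tolerance, was listed at -3.87 ± 0.84 (adjusted p = 0.0653).

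**Figure D3:**
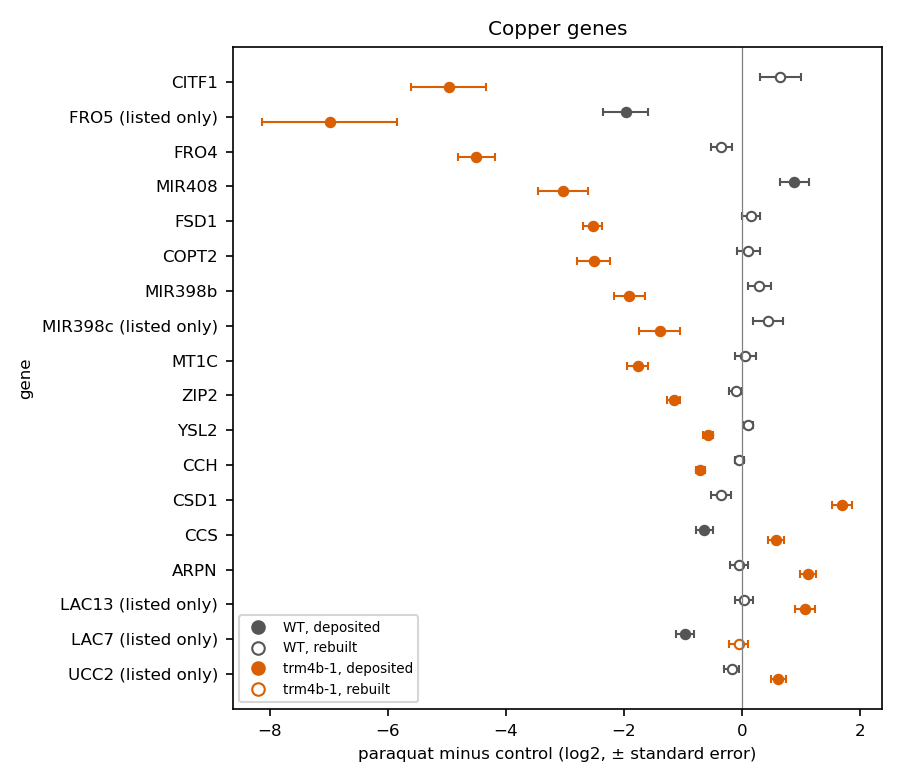
Paraquat change (log2, bars are standard errors) in WT (grey) and trm4b-1 (orange) for 18 genes of copper supply and copper proteins, 3 samples per group, with open symbols for rebuilt values. Most WT values sit near zero, while in trm4b-1 the genes from CITF1 to CCH lie below zero and CSD1, CCS, ARPN, LAC13 and UCC2 above it.

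Among the copper microRNA loci, MIR408 and MIR398b changed, both lower, and MIR398c was listed. The loci MIR398A, MIR397A, MIR397B and MIR857 on the copper list were not listed, nor was CSD2, another known miR398 target. The locus MIR408 (chromosome 2, 19319780 to 19321026, plus strand in the tables) rose by 0.89 ± 0.24 in WT and fell by 3.03 ± 0.42 in trm4b-1, with an interaction of -3.92 ± 0.49 (adjusted p = 0.00132) in the authors' deposited tables. For MIR398b the fall in trm4b-1 was 1.91 ± 0.27 and the interaction -2.20 ± 0.33 (adjusted p = 0.00724) in the authors' deposited tables, with a rebuilt 0.30 ± 0.19 in WT. MIR398c, downstream on the same strand, had -1.84 ± 0.43 (adjusted p = 0.0834 in the authors' deposited table). These values count reads of the annotated loci and not the mature microRNAs. AT2G47020 overlaps the MIR408 locus of the tables and AT5G14550 that of MIR398b, so reads of either partner cannot be told apart. The mature sequences are shown because the base pairing described next rests on them; they come from RefSeq (TAIR10.1), with the seed, bases 2 to 8, in capitals.
miR408-3p: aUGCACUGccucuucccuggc
miR398b-3p: uGUGUUCUcaggucaccccug
miR398c-3p: uGUGUUCUcaggucaccccug
The last pair is identical, so MIR398b and MIR398c share a seed, GUGUUCU, which differs from that of miR408, UGCACUG.

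The best complementary site of each microRNA was read from the first RefSeq transcript of 5 listed genes. Capitals mark bases that pair with the microRNA by Watson-Crick pairing, and the sites are written as DNA.
ARPN, miR408-3p: cCaAGGGAAGAGGCAGTGCAT
LAC13, miR408-3p: GCCgGtGAAGAGGCtGTGCAg
UCC2, miR408-3p: GCCAGGGtgGAGtCAGTGCtT
CSD1, miR398b-3p: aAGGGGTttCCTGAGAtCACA
CCS, miR398b-3p: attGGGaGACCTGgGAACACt
The ARPN site (TAIR10.1 chr2:827696-827716, coding sequence) paired at 19 of 21 bases, a match with so few unpaired bases being found in 2 of 31346 transcripts (0.00638%). Those of LAC13 (chr5:2210756-2210776, annotated in the 5' UTR) and UCC2 (chr2:18462149-18462169, annotated in the 3' UTR) paired at 17, as did 0.0351% of transcripts or fewer unpaired. The CSD1 site lies in the 5' UTR across an exon junction and also had 4 unpaired bases, which 0.0128% of transcripts had for miR398b-3p. CCS had 6 unpaired bases in its coding sequence, as few as 1.01% of transcripts, so that match is a common one. In the interaction ARPN, a plantacyanin of the wall, had 1.17 ± 0.21 (adjusted p = 0.0245), and LAC13 and UCC2 were listed at 1.04 ± 0.23 and 0.79 ± 0.18 (adjusted p = 0.0745 and 0.0826) in the authors' deposited table. LAC7, a laccase gene of the copper list, was listed at 0.91 ± 0.22 (adjusted p = 0.0944 in the authors' deposited table), but its best miR408-3p match had 9 unpaired bases, as few as in 83.8% of transcripts. LAC13 differed from ARPN on control medium, where it was lower in trm4b-1 by -1.14 ± 0.17 (adjusted p = 0.00307) in the authors' deposited table, against a rebuilt -0.12 ± 0.15 for ARPN. With paraquat in trm4b-1 the authors' deposited table gave rises of 1.12 ± 0.14 for ARPN, 1.07 ± 0.18 for LAC13 and 0.62 ± 0.13 for UCC2, while LAC7 had a rebuilt -0.06 ± 0.16. A match describes the letters only, and cleavage was not measured.

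The copper regulator SPL7 is known to bind the letters GTAC. These letters (the same on both strands) were searched in the 250 bases before the RefSeq start of each gene. They occurred at least 2 times in 5 of the 11 lower copper genes listed (45.5%) and 2 of the 4 higher ones (50%), in 2132 of all 27769 promoters (7.68%) and in 31 of 313 listed genes (9.9%). The share was not computed for copper genes outside the interaction, so it describes copper genes and says nothing about the interaction. At least 4 occurrences were found in 76 promoters (0.274%), MIR408 with 4 and MIR398b with 5 among them. FRO4, FRO5, CITF1 and COPT2 had none in this window, which says nothing about the factor. Both microRNA promoters are shown because of these repeats, with GTAC in capitals (TAIR10.1 chr2:19319564-19319813 and chr5:4690772-4691021, both plus strand).
MIR408: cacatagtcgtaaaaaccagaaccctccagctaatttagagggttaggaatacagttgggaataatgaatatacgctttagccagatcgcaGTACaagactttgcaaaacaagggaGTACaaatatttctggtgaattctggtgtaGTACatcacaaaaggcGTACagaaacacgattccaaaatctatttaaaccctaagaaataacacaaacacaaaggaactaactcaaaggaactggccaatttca
MIR398b: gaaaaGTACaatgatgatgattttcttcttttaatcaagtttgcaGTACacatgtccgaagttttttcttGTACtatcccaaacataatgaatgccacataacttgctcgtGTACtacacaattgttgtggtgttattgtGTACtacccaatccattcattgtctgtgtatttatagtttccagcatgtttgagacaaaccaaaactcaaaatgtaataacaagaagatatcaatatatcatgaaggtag

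A few genes of mitochondrial stress had a lower interaction. Of 17 markers, 4 were listed (23.53%, where 0.943% of all genes tested were), all lower, and 3 changed. With paraquat 12 of the 17 rose in WT and 14 rose in trm4b-1 (7.99% and 4.72% of all genes tested did). In the interaction 13 of the 17 were not listed. UPOX, a marker of oxidative stress (AT2G21640, chromosome 2, 9254459 to 9255625, plus strand), rose by 4.65 ± 0.20 in WT and by 1.93 ± 0.11 in trm4b-1 in the authors' deposited tables. Relative to WT control its level was 4.65 in WT on paraquat, 3.23 in trm4b-1 on control medium and 5.16 in trm4b-1 on paraquat. WT on control medium was thus the low group, and the interaction was -2.72 ± 0.23 (adjusted p = 4.04e-05 in the authors' deposited table). NDB4 and NDB3 encode alternative NAD(P)H dehydrogenases of the mitochondrial inner membrane, which bypass a proton-pumping complex. NDB4 had levels of 4.33, 4.13 and 5.09 in the same order and an interaction of -3.37 ± 0.39 (adjusted p = 0.000803 in the authors' deposited table). For NDB3, which was not on the list, the levels were 4.06, 3.13 and 4.08 and the interaction -3.11 ± 0.48 (adjusted p = 0.00933 in the authors' deposited table). AT12CYS-2, which encodes a small protein with paired cysteines, had -2.17 ± 0.41 (adjusted p = 0.0344), and the mitochondrial chaperone gene HSP23.5 was listed at -1.18 ± 0.25 (adjusted p = 0.0572) in the authors' deposited table. TIM17-1, a subunit of the inner membrane protein import complex, was lower by another pattern, with 2.15 ± 0.53 in WT and -1.49 ± 0.47 in trm4b-1, of which the WT rise passed the threshold in the authors' deposited tables. A core of the element bound by NAC factors of mitochondrial stress, CTTG and CA with any 5 bases between them, was searched on both strands. It was found in 2 of the 4 listed markers, UPOX and HSP23.5, against 2218 of all 27769 promoters (7.99%), and in 19 of 129 listed lower genes (14.7%) and 14 of 184 listed higher ones (7.61%). The other listed markers, NDB4 and AT12CYS-2, had none. The share was not computed for markers outside the interaction, so it says nothing about the interaction. UPOX had 2 overlapping matches on opposite strands, shown in capitals (TAIR10.1 chr2:9254128-9254377, plus strand).
UPOX: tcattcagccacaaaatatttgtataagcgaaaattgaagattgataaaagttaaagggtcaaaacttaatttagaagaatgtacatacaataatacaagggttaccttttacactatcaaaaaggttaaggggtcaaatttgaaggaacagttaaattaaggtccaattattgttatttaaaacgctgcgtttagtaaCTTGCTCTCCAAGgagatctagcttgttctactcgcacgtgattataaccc

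Large lower values outside the copper genes belonged to several loci of unclear function. AT5G53230, which encodes a protein of the DUF295 family, had -5.24 ± 0.60 (adjusted p = 0.000687 in the authors' deposited table), with levels of 3.62 in WT on paraquat, 5.65 in trm4b-1 on control medium and 4.03 in trm4b-1 on paraquat. In all, 5 of 69 annotated genes of this family were listed, each lower, where 0.393% of all genes tested were listed as lower, and 4 of them changed (AT5G52940 at -3.67, AT5G03390 at -1.65 and AT5G54560 at -3.93 beside AT5G53230 in the authors' deposited table). This family was picked after its values were seen. AT5G54560 and the fifth member, AT5G54550 (-2.95 ± 0.60, adjusted p = 0.0516 in the authors' deposited table), are neighbours on chromosome 5. The adjacent genes AT4G05370 and AT4G05380 on chromosome 4 had -4.71 ± 0.85 and -4.98 ± 0.55 in the authors' deposited table, and they may share reads. On a list of 7 loci grouped as variably expressed, 5 changed. In the authors' deposited table AT5G53230, AT4G05370, AT4G05380 and the transcription factor gene NAC085 (-4.20 ± 0.79) were lower. The orphan gene QQS (3.94 ± 0.77, adjusted p = 0.0422 in the authors' deposited table) was higher. That list was made from what earlier work on these samples showed and is not independent of them. AT1G58983, a ribosomal protein S5 family gene, had the lowest value of all, -7.22 ± 0.94 (adjusted p = 0.00181 in the authors' deposited table). Its level in trm4b-1 on control medium was 7.33, and it was near WT control in the other groups, but near-identical copies could share its reads, so the value is uncertain.

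Further transcription factor and stress genes had WT on control medium as the low group. NAC103 had -3.66 ± 0.57 (adjusted p = 0.00995) and ERF71, a hypoxia-responsive ethylene response factor, -3.62 ± 0.45 (adjusted p = 0.00132) in the authors' deposited table. NAC044, related to NAC085, was listed at -2.28 ± 0.48 (adjusted p = 0.0587). GMI1, a gene named for its induction by gamma rays and mitomycin, rose by 2.25 ± 0.21 in WT and had a rebuilt -0.34 ± 0.13 in trm4b-1, with an interaction of -2.59 ± 0.24 (adjusted p = 0.000102 in the authors' deposited table). ACC2, a plastid acetyl-CoA carboxylase of fatty acid synthesis, had levels of 1.795, 2.24 and 1.802 in WT on paraquat, trm4b-1 on control medium and trm4b-1 on paraquat, and its interaction was -2.23 ± 0.17 (adjusted p = 4.04e-05 in the authors' deposited table). CAC3, a subunit of the other, multi-part acetyl-CoA carboxylase, had the opposite sign, 0.86 ± 0.15 (adjusted p = 0.0191 in the authors' deposited table). EMB1030, an alanyl-tRNA synthetase gene, had -2.02 ± 0.21 (adjusted p = 0.000383 in the authors' deposited table) and, like ACC2, rose in WT and fell in trm4b-1. Efflux genes among the lower changed genes were AT2G04050, of the MATE family (-3.12 ± 0.52), and the ABC transporter genes ABCC9 (-3.60 ± 0.44) and ABCG11 (-1.29 ± 0.25), in the authors' deposited table. PAD3, the last enzyme of camalexin synthesis, was instead set apart by WT on paraquat. It had -1.47 ± 0.24 (adjusted p = 0.0159 in the authors' deposited table) and was the only one of 31 camalexin and indole defence genes listed.

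A few iron uptake genes were lower as well. Of 30 genes of iron deficiency and storage, 4 were listed (13.3%, where 0.943% of all genes tested were), all lower, and 3 changed. Over the whole list 15 rose and 5 fell in WT, where 7.99% and 9.01% of all genes tested did. In trm4b-1 10 rose and 4 fell (4.72% and 4.33% of all genes tested). FRO2, the ferric reductase of the root surface, rose by 1.04 ± 0.16 in WT and fell by 0.55 ± 0.15 in trm4b-1, with an interaction of -1.60 ± 0.22 (adjusted p = 0.00319) in the authors' deposited tables. IRT1, the main iron transporter of the root epidermis, rose by 1.83 ± 0.14 in WT in the authors' deposited table. In trm4b-1 it had 0.44 ± 0.14, which did not pass the threshold (adjusted p = 0.0654 in the authors' deposited table), and the interaction was -1.39 ± 0.20 (adjusted p = 0.00486). CYP82C4, an enzyme of the iron-mobilising coumarin sideretin, had -1.29 ± 0.26 (adjusted p = 0.0492), and the regulator bHLH38 was listed at -1.66 ± 0.34 (adjusted p = 0.0546) in the authors' deposited table. All 4 were higher in trm4b-1 than in WT on control medium, by 1.21 to 1.48. On paraquat their differences ran from -0.28 to -0.05 and none was called. These 4 were selected by the interaction, which is computed from the same differences. Over the whole list of 30, 5 were higher and 1 lower in trm4b-1 on control medium (0.839% and 1.19% of all genes tested were).

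Root hair wall genes were a large group among the higher genes. Root hairs are tip-growing cells of the epidermis whose walls hold extensins, proline-rich proteins and wall-loosening enzymes. Of 28 root hair wall genes, 13 were listed (46.4%, where 0.943% of all genes tested were), all higher, and 5 changed. With paraquat all 13 fell in WT, by values from -2.40 to -1.35, and in trm4b-1 their values ran from -0.82 to 0.60 with none called. On control medium all 13 were lower in trm4b-1 than in WT, from -1.995 to -0.93. These 13 were selected by the interaction, which is computed from the same differences. Over the whole list of 28, 26 fell in WT and 3 fell in trm4b-1 (9.01% and 4.33% of all genes tested did). Of the 28, 23 were lower in trm4b-1 on control medium (1.19% of all genes tested were). The 5 changed genes all had WT on control medium as the group farthest from the others. PRP1, a proline-rich wall protein gene, had levels of -1.65, -1.995 and -1.39 in WT on paraquat, trm4b-1 on control medium and trm4b-1 on paraquat, and an interaction of 2.25 ± 0.38 (adjusted p = 0.016 in the authors' deposited table). XTH26, which remodels xyloglucan, had 2.16 ± 0.41 (adjusted p = 0.0364), the extensin gene LRX1 1.27 ± 0.24 (adjusted p = 0.0323), G3Pp2, annotated as root hair specific 15, 1.43 ± 0.27 (adjusted p = 0.0384) and RHS12 1.19 ± 0.24 (adjusted p = 0.0451) in the authors' deposited table. Listed without passing the threshold were PRP3, RHS14, RHS19, EXPA7, EXPA18, EXT6, EXT10 and XTH14, with interactions of 1.03 for EXPA7, 1.06 for EXPA18, 1.25 for RHS14, 1.34 for XTH14, 1.49 for RHS19, 1.52 for PRP3, 1.57 for EXT10 and 1.702 for EXT6 in the authors' deposited table.

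RSL2, a basic helix-loop-helix regulator of root hair growth, was the only one of 22 regulators and tip growth genes listed. It fell by 1.64 ± 0.13 with paraquat in WT and had a rebuilt -0.33 ± 0.12 in trm4b-1, and its interaction was 1.31 ± 0.18 (adjusted p = 0.00265 in the authors' deposited table). MAP18, a microtubule-associated gene with a known role in polar cell growth, had 0.86 ± 0.14 in the authors' deposited table, with adjusted p = 0.014. In bulk roots, fewer root hair cells and less RNA per cell cannot be told apart. Photosynthesis genes, which mark shoot tissue, had 4 of 31 members listed, all higher and none changed, with WT paraquat changes from -2.39 to -0.996. Over the whole list 24 of 31 fell with paraquat in WT and 2 fell in trm4b-1 (9.01% and 4.33% of all genes tested did). On control medium 3 were lower in trm4b-1 (1.19% of all genes tested were). Further photosynthesis genes outside that list, named after their values were seen, were listed as higher, with interactions of 1.59 for PSBQA, 1.56 for CP12-1, 1.05 for FED A and 0.76 for PSBR in the authors' deposited table. Their part in the result was not tested. PRK, the Calvin cycle gene for phosphoribulokinase, changed with 4.37 ± 0.81 (adjusted p = 0.0323 in the authors' deposited table), and AT1G32070 overlaps it. No marker of the root cap and meristem (15 genes) or the cell cycle (37 genes) was listed.

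**Figure D4:**
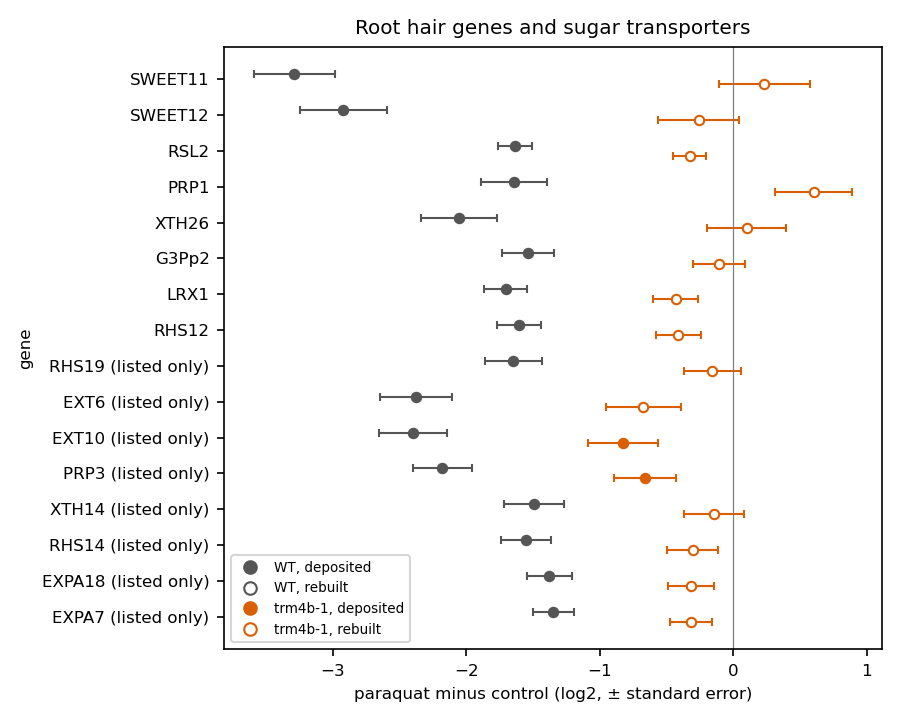
Paraquat change (log2, bars are standard errors) in WT (grey) and trm4b-1 (orange) for SWEET11, SWEET12, RSL2 and the 13 listed root hair wall genes, 3 samples per group, with open symbols for rebuilt values. Every WT value lies below -1, and the trm4b-1 values lie between -0.82 and 0.60.

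The root hair factors RSL4 and RHD6 are known to act through an element whose core is taken here as TG and CACG with any 4 or 5 bases between them. On both strands, 10 of the 13 listed root hair wall genes held it (76.9%), against 2494 of all 27769 promoters (8.98%). The share was not computed for root hair wall genes outside the interaction. It therefore describes root hair genes and says nothing about the interaction. The share was 21.7% of 184 listed higher genes and 14% of 129 listed lower ones. LRX1 and EXPA7 held 2 matches each and are shown with the matches in capitals (TAIR10.1 chr1:4069742-4069991 and chr1:4276255-4276504, both plus strand).
LRX1: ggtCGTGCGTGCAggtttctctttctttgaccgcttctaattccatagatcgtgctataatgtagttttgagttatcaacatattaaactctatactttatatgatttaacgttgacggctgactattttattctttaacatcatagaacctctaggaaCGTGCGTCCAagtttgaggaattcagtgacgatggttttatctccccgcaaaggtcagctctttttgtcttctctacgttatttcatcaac
EXPA7: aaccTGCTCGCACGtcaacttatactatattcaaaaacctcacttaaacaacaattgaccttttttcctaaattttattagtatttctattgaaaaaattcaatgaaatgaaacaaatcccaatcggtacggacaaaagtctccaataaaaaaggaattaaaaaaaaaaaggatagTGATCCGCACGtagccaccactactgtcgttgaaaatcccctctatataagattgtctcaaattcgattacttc

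Among sugar genes, 2 of 25 transporters were listed and both changed (8%, where 0.943% of all genes tested were listed and 0.318% changed). SWEET11 (AT3G48740, chromosome 3, 18052466 to 18054755, minus strand) and SWEET12 (AT5G23660, chromosome 5, 7971651 to 7973925, minus strand) export sucrose for loading into the phloem. SWEET11 fell by 3.29 ± 0.30 in WT and had a rebuilt 0.23 ± 0.34 in trm4b-1, with an interaction of 3.52 ± 0.45 (adjusted p = 0.00181 in the authors' deposited table). On control medium it was already lower in trm4b-1, at -3.01 ± 0.27 in the authors' deposited table. SWEET12 had -2.92 ± 0.32 in WT in the authors' deposited table, a rebuilt -0.26 ± 0.30 in trm4b-1 and an interaction of 2.66 ± 0.44 (adjusted p = 0.016 in the authors' deposited table). SPS2F, a sucrose phosphate synthase gene, rose in both genotypes, by 0.62 ± 0.07 in WT and 1.14 ± 0.07 in trm4b-1 in the authors' deposited tables, and its interaction of 0.52 ± 0.10 was the smallest of the changed genes. PPDK, pyruvate orthophosphate dikinase, had 0.40 ± 0.13 in WT and 1.45 ± 0.13 in trm4b-1 and an interaction of 1.05 ± 0.19 (adjusted p = 0.0232) in the authors' deposited tables.

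Further higher genes belonged to wall, defence and specialised metabolism families. Of 265 proline-rich and extensin-like wall proteins, 14 were listed, 13 of them higher, and 2 changed. The 2 changed genes, PRP1 and LRX1, are root hair wall genes already described above. PRP3, EXT6 and EXT10, among the listed ones, are too, so this family is not separate from that list. Families picked after their values were seen included the defensin-like proteins (4 of 113 annotated genes listed, all higher, 2 changed) and dirigent-like proteins (4 of 26, all higher, 1 changed). Papain-like cysteine proteases (4 of 56, all higher, 1 changed) and acyltransferases of the HXXXD type (3 of 58, all higher and changed) were picked in the same way. Of all genes tested, 0.551% were listed as higher and 0.152% changed upwards. The acyltransferases rose in trm4b-1 (by 0.68 to 2.14 in the authors' deposited table) with WT values between -0.24 and 0.08. For these 3 genes trm4b-1 on control medium was the group farthest from the others. The acyltransferase gene AT2G25150 (2.07 ± 0.40) and CYP82F1 (1.18 ± 0.18), both changed in the authors' deposited table, are adjacent on chromosome 2. A run of 3 adjacent genes on chromosome 5 that makes and modifies the triterpene marneral was higher, with MRN1, marneral synthase, changed (1.22 ± 0.22, adjusted p = 0.0285) and CYP71A16 and CYP705A12 listed (0.70 ± 0.14 and 0.82 ± 0.18) in the authors' deposited table. NSP3, a nitrile specifier protein of glucosinolate breakdown, had 1.75 ± 0.27 (adjusted p = 0.00843 in the authors' deposited table). UMAMIT17, a transporter gene, fell in both genotypes, by 3.68 ± 0.15 in WT and 1.64 ± 0.12 in trm4b-1, with an interaction of 2.04 ± 0.19 (adjusted p = 0.000102) in the authors' deposited tables.

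The largest higher value among the changed genes was that of AT2G30540, a thioredoxin superfamily gene, at 4.94 ± 0.81 (adjusted p = 0.0154 in the authors' deposited table), and it was followed by AT1G24485, PRK and AT4G37483. AT1G24485 and AT4G37483 had values of 4.56 ± 0.86 and 4.16 ± 0.70 in the authors' deposited table, but both are uncertain. In these genes, and in 3 more listed ones, the difference between trm4b-1 on control medium and WT on paraquat was the same number, -0.27, which values at a floor in both groups would give. Genes that rose strongly in trm4b-1 included AT3G21352, of unknown function (5.73 ± 0.46, against 2.56 ± 0.40 in WT), and AT1G52820, an oxygenase gene (4.94 ± 0.46, against 1.98 ± 0.37), in the authors' deposited tables. Their interactions were 3.17 ± 0.61 and 2.96 ± 0.59 in the authors' deposited table, with adjusted p = 0.0384 and 0.047. A single gene of the mitochondrial genome, ATMG01130, changed (0.79 ± 0.15, adjusted p = 0.0323 in the authors' deposited table), and no plastid gene was listed.

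**Figure D5:**
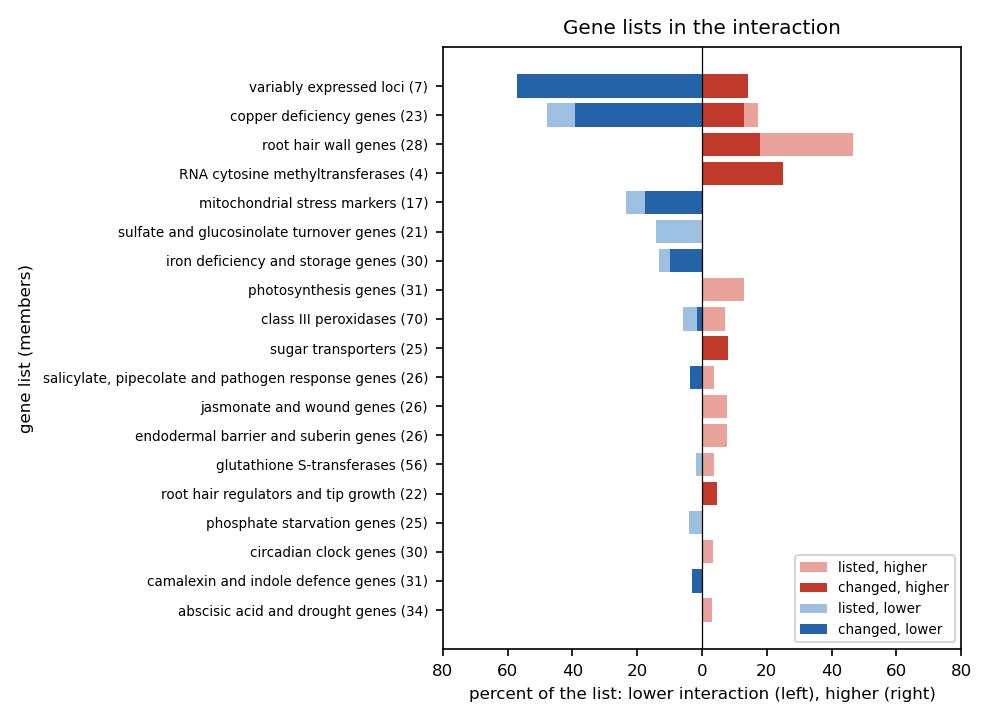
Percent of each gene list (members in brackets, lists of at most 100 genes with a listed member) that was listed (light) or changed (dark) in the interaction, lower to the left and higher to the right. Mitochondrial, iron and sulfate genes lie to the left alone, root hair wall genes to the right alone, and copper genes mostly to the left (11 of 15).

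Several large families were also counted, against 0.943% of all genes tested that were listed. Of 511 transcription factor genes matched by annotation text to the WRKY, NAC, MYB, bHLH and ERF families, 10 were listed (1.96%). They were 3 higher and 7 lower, and 4 changed, all lower. The match left out, among others, RSL2 (changed, higher), ERF71 (changed, lower), and RD26 and Rap2.6L (both listed, higher). The counts therefore do not cover the families in full. Of 248 cytochrome P450 genes, 10 were listed (4.03%), 6 higher and 4 lower, and 5 changed, CYP82F1 higher and 4 lower. Of 710 transporter genes matched by annotation text, 17 were listed (2.39%) and 7 changed, 3 higher and 4 lower. The match left out, among others, SWEET11 and ABCI20, which changed and were higher, and ZIP2, YSL2, ABCC9 and ABCG11, which changed and were lower. These counts therefore do not cover all transporters. Of 1064 kinase genes 9 were listed (0.846%) and 2 changed, both higher. On the fixed list, class III peroxidases had 9 of 70 listed (12.9%), 5 higher and 4 lower. Of these 1 changed, PRX52 at -3.37 ± 0.66 (adjusted p = 0.0424 in the authors' deposited table). A wider match of annotation text, chosen after the values were seen, had 10 of 78 listed, 6 higher and 4 lower. It added PRXCB, which changed and was higher, at 0.93 in the authors' deposited table. Among 56 glutathione S-transferases 3 were listed (5.36%) and 0 changed, and of 21 sulfate and glucosinolate turnover genes 3 were listed (14.3%), all lower, and 0 changed. The counts of listed genes were 2 of 26 for jasmonate and wounding, 2 of 26 for the endodermal barrier, 1 of 34 for abscisic acid, 1 of 30 for the clock, 1 of 25 for phosphate starvation and 2 of 376 (0.532%) for ribosomal proteins. No gene was listed among 29 of nitrate and ammonium, 34 of auxin and cytokinin response, 26 of cytosolic heat shock and 15 glutamate receptors and nucleotide-gated channels. A gene that is not listed had an adjusted p of 0.1 or more, which does not show that its response was equal in both genotypes.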

How the data were processed

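Root RNA was sequenced after ribosomal RNA had been removed, as the labels' protocols state. Tools listed in the submitters' processing notes, without versions, are TopHat, Trimmomatic and limma, with the build TAIR10. The sources used here do not give the counting, normalization, strand or filters. The authors deposited 5 tables of comparisons with, for each gene, a log fold change (read as log2), p-values before and after adjustment, a q-value by Storey's method and exon coordinates, as named in the file headers. Depth per sample is unknown.

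All 317 genes of the deposited interaction table were used. Solving for additive variances over 96 genes listed in the interaction and both paraquat tables gave 15.3 total degrees of freedom, from which standard errors followed. This recovery was tested on simulated data. Contrasts not listed were rebuilt as sums or differences of listed ones. No model was refitted.

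The members and the 36 gene lists were chosen with earlier results of these data known. Named genes are TRM4B, the 15 largest values and 8 lowest adjusted p in each direction, up to 6 changed members per list, and members of their families or tandem pairs; others were named after their values were seen. MicroRNA, transcript and promoter sequences and gene names came from RefSeq (TAIR10.1), in which 98.6% of the introns between the files' nuclear exon blocks had GT-AG or GC-AG ends. Gene coordinates are those of the deposited tables (TAIR10). Software was matplotlib 3.10.9, scipy 1.17.1, pandas 2.3.3 and numpy 2.4.6 under Python 3.11.15. Alternatives were other thresholds and adjustments, leaving out gene classes, deposited values alone and residual degrees of freedom.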

Additional observations from a re-analysis of the deposited data

Results flagged for a closer look

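Response to paraquat differed between the genotypes in 107 genes by the authors' deposited interaction test. In 13 of them paraquat changed the gene in opposite directions, each past an adjusted p under 0.05 within its own genotype. The interaction is computed from both responses and so favours such genes by construction. Their share over all genes tested was not computed. A rise in WT and a fall in trm4b-1 were found in 10 genes, with these interaction values (log2) in the authors' deposited table. They were -2.23 for ACC2, -2.02 for EMB1030, -4.98 for AT4G05380, -5.24 for AT5G53230 and -3.92 for MIR408. The values were -1.14 for CYP702A5, -1.64 for AT3G58270, -1.60 for FRO2, -2.81 for GEX1 and -3.93 for AT5G54560. A fall in WT and a rise in trm4b-1 were found in 3 genes, with 1.22 for CCS, 0.96 for AT1G02360 and 4.16 for AT4G37483 in the authors' deposited table. AT4G37483 is among the genes at a possible floor.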

How the results depend on the processing

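Against 107 changed genes (51 higher, 56 lower) at an adjusted p under 0.05, an adjusted p under 0.01 left 34 (8 higher, 26 lower), Holm adjustment left 23 (5 and 18), a Storey q under 0.05 gave 229 (129 and 100) and all listed genes were 317 (185 and 132). Lower genes thus made up most of the stricter sets and the minority of the wider ones. Counts stayed within 1.5 times with a log2 value of at least 1 (88), without organelle genes (106), without genes at a floor (105), without genes that overlap another annotated gene (92) and, as an alternative chosen after seeing the data, without genes with a standard error above 0.5 (84). Members of the function lists that changed numbered 49, and 122 were listed. Medians over deposited values alone were larger by construction, since only genes past the listing limit enter. The WT paraquat median went from -0.99 to -1.23 for higher genes and from 1.81 to 2.25 for lower ones, and the trm4b-1 paraquat median from 0.50 to 1.13 and from -0.45 to -0.71. The genotype median on control medium went from 1.57 to 2.25 for lower genes, and that on paraquat from 0.53 to 0.97 for higher and from -0.11 to -1.59 for lower genes. With 8 residual degrees of freedom the median standard error was 0.172 in place of 0.251. No paired analysis was possible because the tables hold no values per sample, and leaving out replicates was not run for the same reason.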
